A study of Mus musculus with 6 samples.

Results

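Plasminogen activators, their cell-surface receptors and their serpin inhibitors were followed in cultured mouse mammary tumor explant cells depleted of CdGAP. The set was chosen by gene symbol and holds 8 genes of the 41214 in the deposited table: the activators Plau and Plat, the receptors Plaur and Anxa2, the inhibitors Serpine2 and Serpinb2, and the coagulation pair F3 and Tfpi. All 8 were found, each in 1 row, and all 8 passed the filter on low reads that left 13483 tested genes. The depleted population (shCdGAP, 3 libraries) carried a short hairpin RNA against CdGAP, the Arhgap31 product, which switches off the GTPases Cdc42 and Rac1. The control population (shCON, 3 libraries) carried a control hairpin. All cells came from the murine mammary epithelial line NMuMG, carried Neu-NT (an active mutant of the ErbB2 receptor) and were grown with serum, insulin and G418. The labels name neither the hairpin sequences nor the cultures behind the 3 libraries of a group, so the spread that the p-values rest on may be technical. The cell type label reads shCTL for all 6 samples, and the genotype label separates the groups.

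Plasmin is a broad protease that dissolves fibrin and cleaves matrix proteins, and it is made from plasminogen by the urokinase activator (Plau) or the tissue activator (Plat). Urokinase is held at the cell surface by its receptor Plaur, whereas annexin A2 (Anxa2) with its partner S100a10 binds plasminogen and the tissue activator. Serpins block the activators by forming covalent complexes with them. Tissue factor (F3) starts the coagulation cascade that lays down fibrin, and Tfpi inhibits that start. In breast tumors the urokinase system is best known as a marker of invasive growth.

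The 8 genes did not all move in one direction. One activator, Plau, rose 5.67-fold in shCdGAP cells by the ratio of mean FPKM (a level scaled for gene length and sequencing depth). The other activator, Plat, fell 1.58-fold, and the surface receptor Anxa2 fell to a mean of 316 FPKM in shCdGAP, against 631 FPKM in shCON. Both inhibitors fell by more, Serpine2 13.2-fold and Serpinb2 11.4-fold. Plaur, F3 and Tfpi did not pass the test. By limma on log2(FPKM + 1) with Benjamini-Hochberg adjustment over all tested genes, 5 of the 8 genes were past an adjusted p of 0.05, against 21.0% of all tested genes. Of these, 1 was higher, against 9.92% of all tested genes, and 4 were lower, against 11.1%. The groups did not overlap for 6 of the 8 genes, and for 44.1% of all tested genes. The median log2 fold change was -0.81 over the 8 genes and -0.010 over all tested genes. The authors' deposited table, with its own DESeq2 test, called the same 5 of the 8 in the same directions, and 23.8% of its 16970 tested genes. In bulk RNA, fewer cells that express a gene and less RNA per cell cannot be told apart.

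Libraries held between 19176540 and 26824249 reads. Arhgap31, the target of the hairpin, was at 0.149, 0.826 and 0.748 FPKM in shCdGAP replicates 1, 2 and 3, against 1.19, 1.30 and 1.35 FPKM in the shCON replicates. The groups did not overlap, but its log2 fold change of -0.56 missed the threshold in limma (adjusted p = 0.0836). Without shCdGAP replicate 1 it was -0.35 and passed (adjusted p = 0.0157). Arhgap31 was not called by limma-voom on reads (-1.49, adjusted p = 0.119) or in a limma fit blocked on replicate number (adjusted p = 0.0728). The authors' deposited table did not call it either (-0.99, SE 0.48, adjusted p = 0.125, DESeq2). Replicate 1 of shCdGAP stood apart: across tested genes its correlation with replicates 2 and 3 was 0.948 and 0.938, against 0.996 between those 2, and genes are not independent replicates in these values. Without that library 7 of the 8 genes passed the test, against 39.9% of all tested genes, so results that rest on it are given with and without it. Without shCdGAP replicate 2 or 3, 4 of the 8 passed, against 10.9% and 15.9% of all tested genes. Without shCON replicate 1, 2 or 3, 3 passed, 1 higher and 2 lower, against 12.8%, 9.17% and 9.88%. Across tested genes, shCON replicate 1 correlated at 0.991 and 0.990 with shCON replicates 2 and 3, against 0.998 between those 2. The keratins Krt8 and Krt18 averaged 2487 and 2457 FPKM in shCdGAP and 1997 and 2169 in shCON, as keratins of simple epithelium. Krt19 averaged 479 FPKM in shCdGAP and 358 in shCON, and Cdh1, the gene of E-cadherin, 168 FPKM in shCdGAP and 50.7 in shCON. Whether the higher Cdh1 level goes with the members' changes was not tested. The other 6 markers of this list averaged below 1 FPKM in both groups: Cldn7 had 0 reads in all libraries, Esrp1 had 1 read, and Epcam was at 0 FPKM in shCdGAP and 0.632 in shCON. Summed over the 10 epithelial markers, the level was 4001 to 6555 FPKM in shCdGAP and 3617 to 5065 in shCON. Fibroblast markers (8 genes) summed to between 0.597 and 1.10 FPKM in shCdGAP and between 0.814 and 0.947 in shCON, with Lum and Thy1 at 0 reads.

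Plau encodes urokinase (ENSMUSG00000021822, chromosome 14, 20836660 to 20843385 of mm10, plus strand). In shCdGAP, replicates 1, 2 and 3 held 0.989, 1.19 and 0.842 FPKM (53, 61 and 49 reads). In shCON they held 0.265, 0.140 and 0.128 FPKM (12, 9 and 8 reads). Every shCdGAP library was above every shCON library, at a level that was low in both groups. The means were 1.01 ± 0.173 FPKM in shCdGAP and 0.177 ± 0.0762 in shCON (SD, n = 3). In limma the log2 fold change reached 0.77 with an SE of 0.089 (adjusted p = 0.00279). The 1 FPKM added before the log shrinks the change of such a low gene, and limma-voom on reads gave 2.53 (SE 0.34, adjusted p = 0.00374). In the authors' deposited table it was 2.32 (SE 0.39, adjusted p = 3.35e-08, DESeq2). The call held without each single library in turn, with adjusted p of 0.00167 to 0.0211 in limma.

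Plat encodes the tissue activator (ENSMUSG00000031538, chromosome 8, 22757727 to 22782844, plus strand). It was at 22.7, 17.0 and 18.6 FPKM in shCdGAP replicates 1, 2 and 3, against 32.5, 30.8 and 28.5 FPKM in the shCON replicates. The groups did not overlap, and here shCdGAP replicate 1 was the highest of its group. The means were 19.4 ± 2.96 FPKM in shCdGAP and 30.6 ± 2.04 in shCON (SD, n = 3), and limma put the log2 fold change at -0.64 with an SE of 0.13 (adjusted p = 0.0203). This call was lost without shCdGAP replicate 2 or 3 (adjusted p = 0.0734 and 0.0585) or without shCON replicate 1, 2 or 3 (0.0762, 0.0895 and 0.0647). The fold change in these fits stayed between -0.69 and -0.55. The authors' deposited table called Plat lower (log2 fold change -0.65, SE 0.17, adjusted p = 0.00132, DESeq2).

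The balance between the activators, taken within each library, differed between the groups, while Plat remained the main transcript. The shCON values of this balance rest on only 12, 9 and 8 Plau reads in replicates 1, 2 and 3. The level of Plat per length was 23.0, 14.3 and 22.1 times that of Plau in shCdGAP replicates 1, 2 and 3, and 123, 221 and 223 times in the shCON replicates. Of the summed FPKM of both activators, Plau made up 4.17%, 6.53% and 4.33% in the shCdGAP libraries and 0.808%, 0.451% and 0.446% in the shCON libraries. The sum itself was 18.2 to 23.7 FPKM in shCdGAP and 28.6 to 32.8 FPKM in shCON. The summed activator transcript was thus lower in every shCdGAP library, in spite of the rise of Plau.

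**Figure D1:**
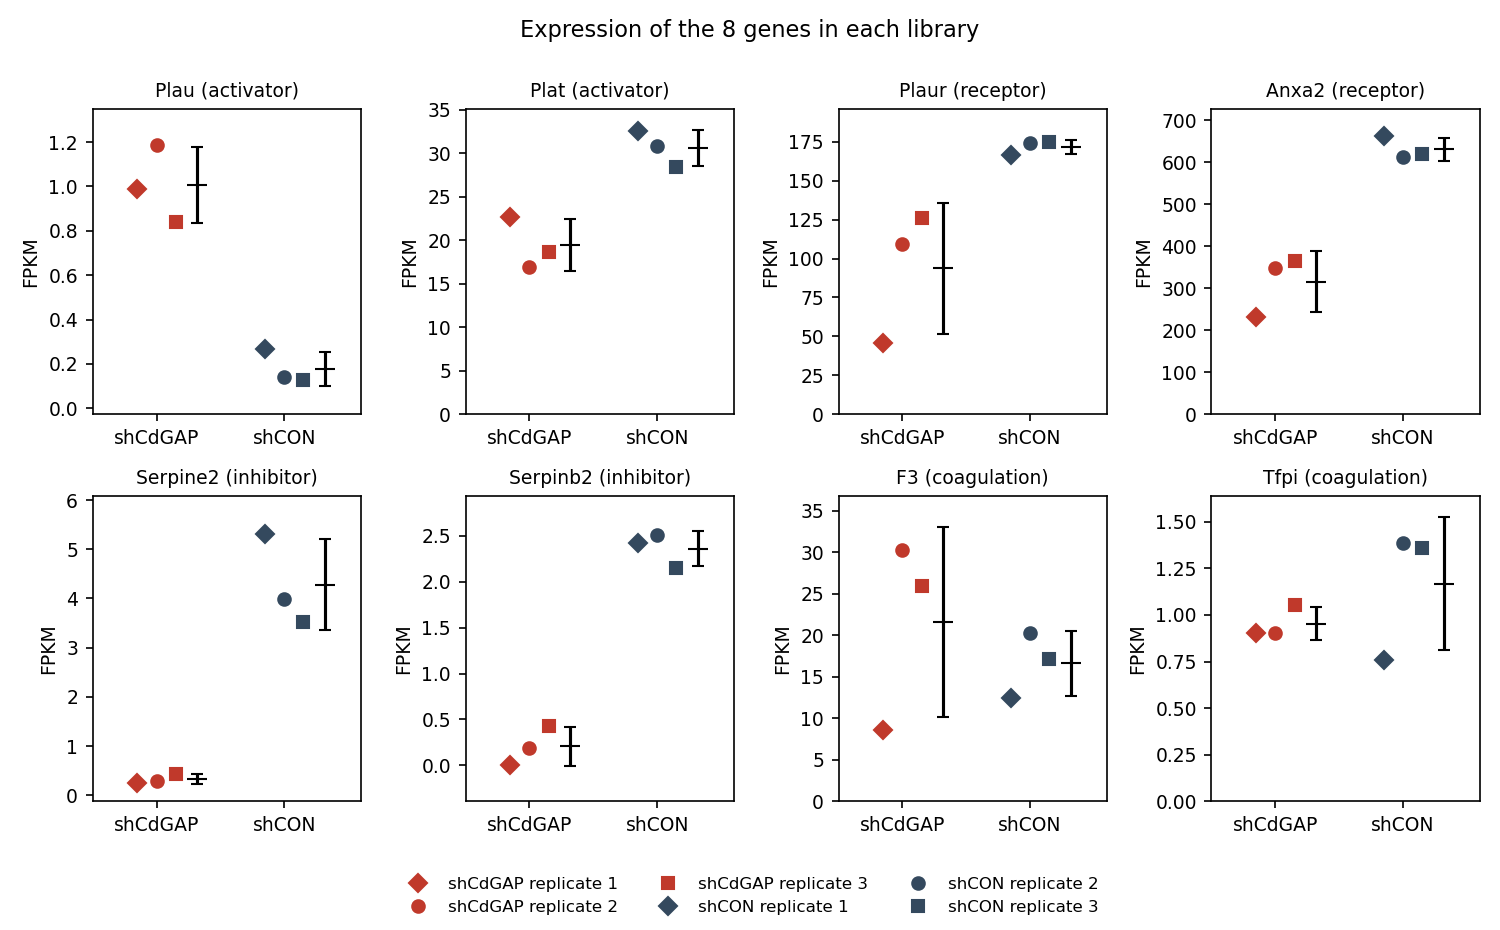
FPKM of each of the 8 genes in every library, shCdGAP on the left and shCON on the right of each panel, with the marker shape giving the replicate number and the black bar the mean ± SD (n = 3). Plau is higher and Plat, Plaur, Anxa2, Serpine2 and Serpinb2 are lower in every shCdGAP library than in any shCON library, whereas the groups overlap for F3 and Tfpi.

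Plaur, the urokinase receptor gene (ENSMUSG00000046223, chromosome 7, 24462484 to 24475968, plus strand), was at 45.9, 109 and 126 FPKM in shCdGAP replicates 1, 2 and 3. It was at 166, 174 and 175 FPKM in the shCON replicates. The groups did not overlap, but replicate 1 of shCdGAP lay far below its own group, whose other libraries were 2.56 times higher on average. The means were 93.7 ± 42.3 FPKM in shCdGAP and 172 ± 4.64 in shCON (SD, n = 3). With all 6 libraries the log2 fold change was -0.99 (SE 0.37), which missed the threshold (adjusted p = 0.116, limma), as it did in the authors' deposited table (-0.81, SE 0.35, adjusted p = 0.0768, DESeq2). Without shCdGAP replicate 1 the fold change was smaller, at -0.55, and passed (adjusted p = 0.00448, limma). Per length, Plaur exceeded Plau 46.4, 92.0 and 150 times in the shCdGAP libraries and 628, 1246 and 1371 times in the shCON libraries.

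Anxa2 (ENSMUSG00000032231, chromosome 9, 69453620 to 69491795, plus strand) was the most abundant of the 8 genes. It was at 232, 349 and 365 FPKM in shCdGAP replicates 1, 2 and 3, against 662, 612 and 620 FPKM in the shCON replicates. All 3 shCdGAP libraries were far below the lowest shCON library. The means were 316 ± 72.9 FPKM in shCdGAP and 631 ± 27.1 in shCON (SD, n = 3), and limma put the log2 fold change at -1.03 with an SE of 0.19 (adjusted p = 0.0140). The call was lost narrowly without shCON replicate 1, 2 or 3 (adjusted p = 0.0595, 0.0593 and 0.0603). It was kept without shCdGAP replicate 1, where the fold change was -0.82 (adjusted p = 7.26e-04). The authors' deposited table also called it lower (-0.98, SE 0.22, adjusted p = 7.81e-05, DESeq2). Mir3109 and the antisense gene Gm16144, which are annotated within Anxa2, had 13 and 0 reads in all libraries, against 254681 for Anxa2. S100a10, the binding partner of annexin A2, named here for that role after its values were seen, averaged 239 ± 52.8 FPKM in shCdGAP and 306 ± 5.98 in shCON (SD, n = 3). Its log2 fold change of -0.38 did not pass (adjusted p = 0.181, limma).

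The promoters of both receptor genes are shown because both genes were lower in every shCdGAP library and both windows hold the AP-1 motif. Each sequence covers 250 bases before and 50 after the RefSeq transcription start in GRCm38.p6, the same assembly as mm10, is written 5′ to 3′ along the gene, and has the AP-1 motif TGANTCA in capitals. The motif is its own reverse complement, so a single search covered both strands.
Plaur, chr7:24462233-24462532: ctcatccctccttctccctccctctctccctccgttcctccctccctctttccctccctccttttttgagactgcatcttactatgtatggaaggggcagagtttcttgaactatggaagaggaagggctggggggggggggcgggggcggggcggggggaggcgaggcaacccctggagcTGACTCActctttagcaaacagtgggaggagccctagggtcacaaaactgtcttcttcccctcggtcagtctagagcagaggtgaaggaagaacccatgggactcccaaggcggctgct
Anxa2, chr9:69453433-69453732: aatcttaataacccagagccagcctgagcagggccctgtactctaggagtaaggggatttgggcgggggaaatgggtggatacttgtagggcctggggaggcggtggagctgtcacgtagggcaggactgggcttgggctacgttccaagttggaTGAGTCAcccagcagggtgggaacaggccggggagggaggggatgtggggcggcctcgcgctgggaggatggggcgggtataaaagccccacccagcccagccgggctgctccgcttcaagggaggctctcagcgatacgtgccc
Both genes lie on the plus strand. The motif begins 69 bases before the start in Plaur and 95 bases before it in Anxa2.

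Serpine2 encodes a secreted serpin that inhibits thrombin and urokinase (ENSMUSG00000026249, chromosome 1, 79794197 to 79861180, minus strand), and it had the lowest adjusted p of the 8 genes. In shCdGAP, replicates 1, 2 and 3 held 0.248, 0.286 and 0.442 FPKM (47, 52 and 91 reads). In shCON they held 5.32, 3.99 and 3.53 FPKM (851, 909 and 783 reads). The lowest shCON library was well above the highest shCdGAP library. The means were 0.325 ± 0.103 FPKM in shCdGAP and 4.28 ± 0.927 in shCON (SD, n = 3). On the log2(FPKM + 1) scale limma put the fold change at -1.98 with an SE of 0.15 (adjusted p = 5.95e-04), and limma-voom on reads put it at -3.71 with an SE of 0.29 (adjusted p = 5.49e-04). The authors' deposited table gave -3.54 (SE 0.29, adjusted p = 1.83e-32, DESeq2). Leaving out any 1 library left the call in place, with adjusted p of 3.08e-04 to 0.00617 in limma.

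Serpinb2, a serpin of the urokinase and tissue activators that is largely kept inside the cell (ENSMUSG00000062345, chromosome 1, 107511423 to 107535478, plus strand), fell with it. In shCdGAP, replicates 1, 2 and 3 held 0, 0.194 and 0.428 FPKM (0, 10 and 25 reads). In shCON they held 2.42, 2.51 and 2.15 FPKM (110, 162 and 135 reads). Replicate 1 of shCdGAP had no read, and the other libraries of its group were still far below the shCON libraries. The means were 0.207 ± 0.215 FPKM in shCdGAP and 2.36 ± 0.188 in shCON (SD, n = 3), and limma put the log2 fold change at -1.49 with an SE of 0.14 (adjusted p = 0.00142). Without shCdGAP replicate 1 the shCON mean was 7.58 times the shCdGAP mean in place of 11.4 times, and the fold change was -1.36 (adjusted p = 3.17e-04). Without shCdGAP replicate 3 the shCON mean was 24.3 times the shCdGAP mean. The limma-voom value of -4.63 (SE 1.08, adjusted p = 0.0262) was much larger, and the authors' deposited table gave -2.59 (SE 0.60, adjusted p = 1.48e-04, DESeq2). The size of this change thus differed with the method and with the libraries used, while its direction and call were kept. Serpinb10, which overlaps Serpinb2 on the same strand, had 1 read in all 6 libraries.

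The promoters of the inhibitors are shown because these genes fell most and their windows differ in sequence, with AP-1 motifs again in capitals.
Serpine2, chr1:79858616-79858915: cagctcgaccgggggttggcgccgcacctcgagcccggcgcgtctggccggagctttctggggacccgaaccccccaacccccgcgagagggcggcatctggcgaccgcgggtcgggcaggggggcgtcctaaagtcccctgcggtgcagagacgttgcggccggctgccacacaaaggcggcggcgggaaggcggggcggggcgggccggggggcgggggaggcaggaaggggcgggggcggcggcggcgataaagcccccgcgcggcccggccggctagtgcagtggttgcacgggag
Serpinb2, chr1:107511173-107511472: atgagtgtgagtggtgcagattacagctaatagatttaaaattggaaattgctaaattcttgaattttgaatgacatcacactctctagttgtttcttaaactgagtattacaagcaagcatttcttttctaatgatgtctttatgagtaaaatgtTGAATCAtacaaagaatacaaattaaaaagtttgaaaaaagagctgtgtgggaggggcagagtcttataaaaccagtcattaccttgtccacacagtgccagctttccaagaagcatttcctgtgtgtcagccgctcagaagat
Serpine2 lies on the minus strand and its window, written along the gene, has a G and C content of 77.7% and no AP-1 motif. Serpinb2 lies on the plus strand, its window has a G and C content of 35.3%, and an AP-1 motif begins 94 bases before the start. A further Serpinb2 start in the RefSeq table gives an overlapping window with the same motif.

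Since Plau rose and Serpine2 fell, the order of the pair was reversed between the groups. Plau was 3.99, 4.15 and 1.90 times as high as Serpine2 per length in shCdGAP replicates 1, 2 and 3, and 0.0499, 0.0350 and 0.0361 times as high in the shCON replicates. Plat, which fell, also stood higher against Serpine2 in shCdGAP, with ratios of 42.1 to 91.6, than in shCON, with 6.12 to 8.06. These ratios follow from the values above and carry no test of their own.

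**Figure D2:**
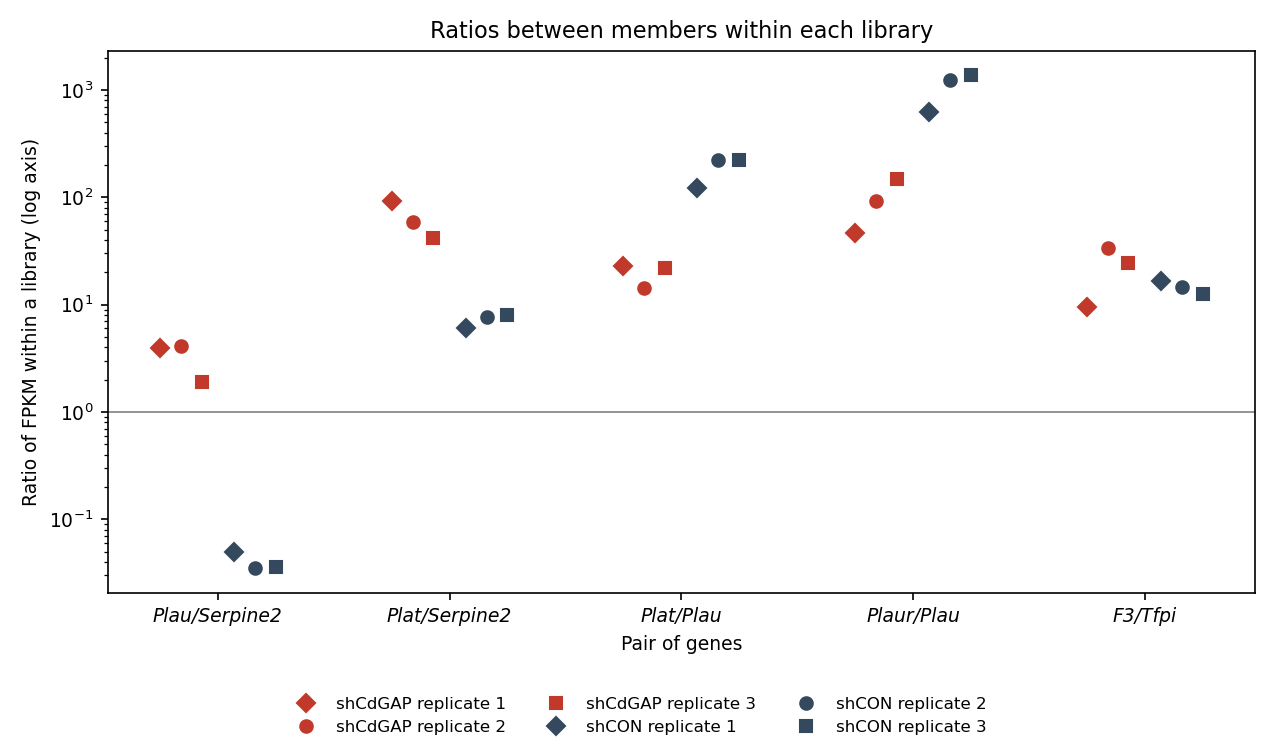
Ratio of FPKM between pairs of the genes within each library, on a log axis, with shCdGAP left of shCON for each pair and marker shape giving the replicate number. The Plau to Serpine2 ratio lies between 1.90 and 4.15 in shCdGAP and between 0.0350 and 0.0499 in shCON, whereas the F3 to Tfpi ratio overlaps between the groups.

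F3, the gene of tissue factor (ENSMUSG00000028128, chromosome 3, 121723537 to 121735048, plus strand), was at 8.58, 30.3 and 25.9 FPKM in shCdGAP replicates 1, 2 and 3. It was at 12.5, 20.2 and 17.1 FPKM in the shCON replicates. Replicate 1 of shCdGAP was the lowest of all 6 libraries and replicates 2 and 3 were the highest, so the groups overlapped. The means were 21.6 ± 11.5 FPKM in shCdGAP and 16.6 ± 3.90 in shCON (SD, n = 3), and the log2 fold change of 0.21 (SE 0.47) did not pass (adjusted p = 0.785, limma). Without shCdGAP replicate 1 it was 0.75 and passed as higher (adjusted p = 0.0226), and without shCdGAP replicate 2 it turned to -0.11 (adjusted p = 0.900). The authors' deposited table had 0.34 (SE 0.42, adjusted p = 0.641, DESeq2). The F3 promoter is shown because it holds 2 AP-1 motifs, in capitals.
F3, chr3:121723287-121723586: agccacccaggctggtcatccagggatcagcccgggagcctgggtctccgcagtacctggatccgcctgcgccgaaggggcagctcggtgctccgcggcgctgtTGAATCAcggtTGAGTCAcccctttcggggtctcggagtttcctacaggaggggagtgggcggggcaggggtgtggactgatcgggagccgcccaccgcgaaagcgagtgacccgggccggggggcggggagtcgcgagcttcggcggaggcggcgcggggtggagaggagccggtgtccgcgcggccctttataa
The motifs begin 146 and 135 bases before the start, on the plus strand.

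Tfpi (ENSMUSG00000027082, chromosome 2, 84432855 to 84476775, minus strand) was at 0.905, 0.901 and 1.05 FPKM in shCdGAP replicates 1, 2 and 3, against 0.758, 1.38 and 1.36 FPKM in the shCON replicates. The lowest and the highest library were both shCON, and the shCdGAP values lay between them. The means were 0.953 ± 0.0873 FPKM in shCdGAP and 1.17 ± 0.355 in shCON (SD, n = 3), and the log2 fold change of -0.14 (SE 0.14) did not pass (adjusted p = 0.535, limma). It passed only where both libraries numbered 1 were left out (-0.26, adjusted p = 0.0408), a fit in which 48.3% of all tested genes passed. The ratio of F3 to Tfpi per length was 9.48, 33.6 and 24.6 in the shCdGAP libraries and 16.5, 14.6 and 12.6 in the shCON libraries, again with shCdGAP replicate 1 lowest.

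RefSeq promoter windows were not found for the activators Plau and Plat, which were not searched, but were found for the other 6 of the 8 genes. They gave 8 windows, since Serpinb2 and Tfpi have more than 1 start each. An AP-1 motif stood in 5 of the 8 windows, those of Plaur, Anxa2, F3 and both of Serpinb2, which overlap. By gene this was 4 of the 6, and no share by gene was counted over all genes. Counted by window, the motif stood in 7.81% of all 32817 windows of the same length. The E-box CAGGTG, searched on both strands, was found in 1 of the 8 windows, at the second of the Tfpi starts, and in 20.2% of all windows. A match of these letters is a description of the window and not a binding site.

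**Figure D3:**
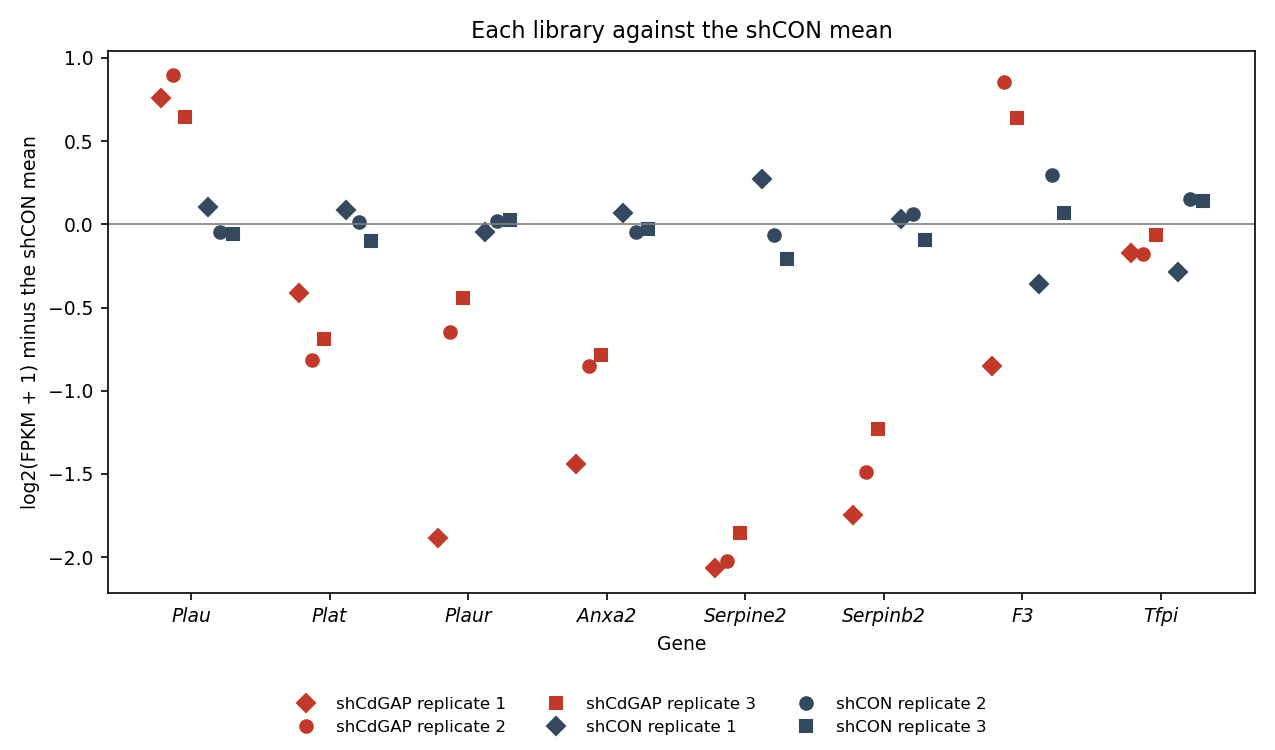
Level of each gene in each library as log2(FPKM + 1) minus the shCON mean of that gene, shCdGAP markers left of shCON markers and marker shape giving the replicate number. Replicate 1 of shCdGAP is the lowest of its group for Plaur, Anxa2, Serpine2, Serpinb2 and F3, but not for Plau, Plat or Tfpi.

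The libraries numbered 1 differed from the others in several of these genes. Replicate 1 of shCdGAP was at 0.390 of the mean of replicates 2 and 3 for Plaur, 0.649 for Anxa2, 0.682 for Serpine2 and 0.305 for F3. For Plat the ratio was 1.28, for Plau 0.976 and for Tfpi 0.926. The lowest Arhgap31 level was in the same library. Whether depth of the knockdown or another property of this library goes with these values was not tested. Replicate 1 of shCON was higher than replicates 2 and 3 of shCON for Plau (0.265 against 0.140 and 0.128 FPKM) and Serpine2 (5.32 against 3.99 and 3.53). It was lower for F3 (12.5 against 20.2 and 17.1 FPKM) and Tfpi (0.758 against 1.38 and 1.36). Within the pairs of equal number, F3 was lower in shCdGAP for number 1 and higher for numbers 2 and 3, and Tfpi was higher for number 1 and lower for the others. The other 6 genes had the same direction in all 3 pairs.

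**Figure D4:**
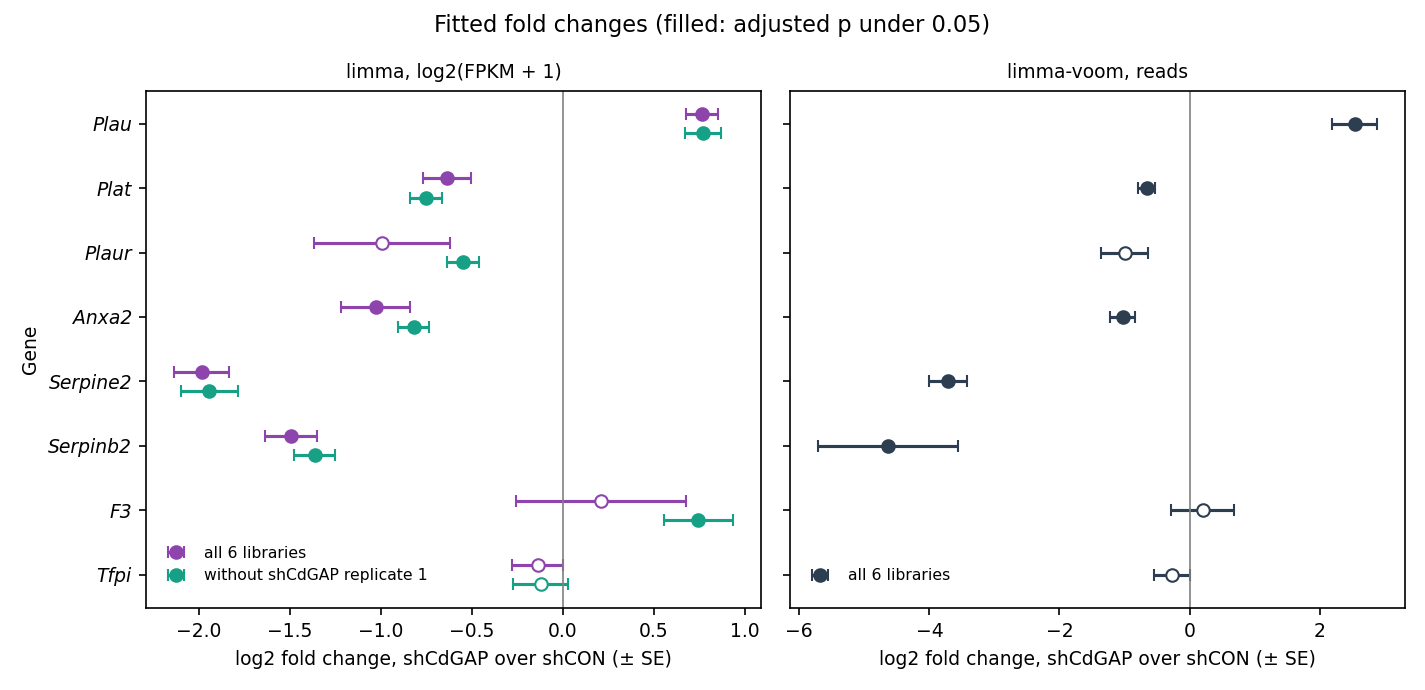
Fitted log2 fold changes of shCdGAP over shCON with standard errors, on the left by limma on log2(FPKM + 1) with all 6 libraries and without shCdGAP replicate 1, on the right by limma-voom on reads. Filled points are past an adjusted p of 0.05. Plau, Serpine2 and Serpinb2 have larger values on the read scale, and Plaur and F3 are filled only without shCdGAP replicate 1.

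In shCdGAP cells the order of mean levels per length was Anxa2, Plaur, F3, Plat, Plau, Tfpi, Serpine2 and Serpinb2. The ranges of F3 and Plat, of Plau and Tfpi, and of Serpine2 and Serpinb2 overlapped there, and the other neighbours did not. In shCON cells the order was Anxa2, Plaur, Plat, F3, Serpine2, Serpinb2, Tfpi and Plau, with no overlap between neighbours. Plau thus stood last in shCON, but above both inhibitors in every shCdGAP library.

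Several genes followed the members closely over the 6 libraries, by Pearson's r of log2(FPKM + 1) among genes that averaged 5 FPKM or more. Plau was most like Relb, an NF-kappaB subunit (r = 0.998), and Vps52 (0.997). Plaur was most like Il33, an alarm cytokine that averaged 25.2 FPKM in shCdGAP and 68.9 in shCON (r = 0.999), and Utp20 (0.998). Serpine2 was most like Itga6, a laminin-binding integrin subunit at 12.5 FPKM in shCdGAP and 60.8 in shCON, with an r of 0.999, and like Cyth4 (0.999). Serpinb2 was nearest to Nt5dc3 and Usp16 (0.998 both), Anxa2 to Lzic and Senp2 (0.999 both), and Plat to Slc39a1 and Susd6 (0.997 and 0.995). F3 was nearest to Zfp326 and Cars2 (0.990 and 0.987) and Tfpi to Tmem222 and Abcc3 (0.997 and 0.987). Such values are common where a few libraries share a group difference, which does not cover F3 and Tfpi, whose groups overlapped. An r of at least 0.95 was reached by 241 of 7625 genes with Plau, 428 of 7624 with Plaur and 390 of 7625 with Serpine2. With F3 it was reached by 121 of 7624 genes, and with Tfpi by 13 of 7625.

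Other genes of the plasminogen system were set beside the members from a list of 18, of which 10 could be tested. Of these 2 were higher, 0 were lower and 8 did not pass in limma, with a median log2 fold change of 0.0076. Among all tested genes 9.92% were higher and 11.1% lower, with a median of -0.010. Habp2, a protease that can activate urokinase, averaged 52.6 ± 13.4 FPKM in shCdGAP cells and 0.715 ± 0.230 in shCON cells (SD, n = 3), and rose by 4.94 on the log2 scale (adjusted p = 9.12e-05, limma). Plgrkt, a membrane receptor of plasminogen, averaged 18.4 ± 8.09 FPKM in shCdGAP and 8.13 ± 0.473 in shCON (SD, n = 3), with a log2 fold change of 1.01 (adjusted p = 0.0496). The call on Plgrkt was lost under most other settings, without shCdGAP replicate 2 (adjusted p = 0.0948), without each shCON replicate (0.138 to 0.148) and in the blocked fit on replicate number (0.0723).

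Of 12 tested coagulation and anticoagulant genes, from a list of 27, 3 rose and 3 fell, against 9.92% and 11.1% of all tested genes. The median log2 fold change was 0.15. Procr, the endothelial receptor of protein C, had the strongest fall, to 0.0350 ± 0.0111 FPKM in shCdGAP against 13.8 ± 0.0533 in shCON (SD, n = 3). F2r, the thrombin receptor, was at 26.1 ± 3.61 FPKM in shCdGAP and 99.2 ± 11.9 in shCON, with a log2 fold change of -1.89 (adjusted p = 6.21e-04, limma). Pros1, the cofactor protein S, fell too (log2 fold change -1.22, adjusted p = 0.00750), whereas Proc, protein C itself, rose (1.17, adjusted p = 0.0201). In the blocked fit on replicate number, which called 2458 of all 13483 tested genes, 1 of these genes rose and 3 fell. Without shCdGAP replicate 2 or any shCON replicate no gene of this list was called higher and 3 were called lower. Each of those fits called 9.17% to 12.8% of all tested genes. Endothelial markers were beside these genes at or near 0. The 8 markers summed to at most 0.0300 FPKM in the shCdGAP libraries and to 0.271 to 0.304 in the shCON libraries, with Emcn, Cldn5 and Sox17 at 0 reads in all. Leukocyte markers (8 genes) summed to 65.2 to 129 FPKM in shCdGAP and 107 to 112 in shCON, most of it Cd14, at a mean of 95.6 FPKM in shCdGAP and 95.5 in shCON. Cd68 averaged 5.08 FPKM in shCdGAP and 14.0 in shCON, and its part in the results was not tested. Adgre1 and Tyrobp had 0 reads.

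Among serpins other than the members more rose than fell. Of 15 tested, from 65 in the table, 6 rose and 1 fell, against 9.92% and 11.1% of all tested genes. The other 8 did not pass, and the median log2 fold change of the list was 0.64. Serpinh1, a collagen chaperone that inhibits no protease, was at 175 ± 23.3 FPKM in shCdGAP and 66.5 ± 1.94 in shCON (SD, n = 3), a log2 fold change of 1.37 (adjusted p = 9.75e-04, limma). Serpinb9, an inhibitor of granzyme B, rose to 18.8 ± 0.374 FPKM in shCdGAP, against 9.21 ± 1.85 in shCON. Serpinb6b was at 51.5 ± 3.30 FPKM in shCdGAP and 31.6 ± 5.62 in shCON (log2 fold change 0.70, adjusted p = 0.0242, limma). The mouse has close copies of both Serpinb6b and Serpinb9, so their reads may be uncertain. How reads were assigned among close copies was not tested for any serpin of this list. The Serpinb6b call was lost in the blocked fit (adjusted p = 0.0571), without shCdGAP replicate 2 or 3 (0.0658 and 0.0629) and without shCON replicate 2 or 3 (0.0517 and 0.0727). Serpinb5, the epithelial serpin maspin, was the single serpin of this list that fell, to 3.25 ± 1.28 FPKM in shCdGAP against 9.42 ± 1.26 in shCON (log2 fold change -1.33, adjusted p = 0.0121). In the blocked fit, which called 2458 of all 13483 tested genes, 3 of these serpins rose and 1 fell. Without shCdGAP replicate 2 or shCON replicate 2 or 3, 2 rose and 0 fell, and without shCON replicate 1, 3 rose and 1 fell. Each of these leave-out fits called 9.17% to 12.8% of all tested genes.

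Of the 11 other annexins, all tested, 2 rose and 0 fell, against 9.92% and 11.1% of all tested genes. The other 9 did not pass, and the median log2 fold change of the list was -0.032. Anxa13, an annexin of epithelial cells, was at 412 ± 61.6 FPKM in shCdGAP and 74.4 ± 5.32 in shCON (SD, n = 3), a log2 fold change of 2.44 (adjusted p = 2.07e-04, limma). Anxa4 was at 197 ± 47.5 FPKM in shCdGAP and 105 ± 11.8 in shCON (0.89, adjusted p = 0.0231), and its call was lost in the blocked fit (adjusted p = 0.0624), on leaving out shCdGAP replicate 2 (0.0582) and on leaving out each shCON replicate (0.0748 to 0.0841). Without shCdGAP replicate 1, 3 annexins were higher and 5 lower, in a fit that called 39.9% of all tested genes. Among 8 tested serine proteases, kringle-domain growth factors and Kunitz inhibitors, from a list of 13, 1 rose and 2 fell. The shares over all tested genes were 9.92% and 11.1%. Without shCdGAP replicate 1, 2 of these 8 rose and 4 fell, again beside 39.9% of all tested genes called. Prss22, a trypsin-like protease, was at 0.376 ± 0.143 FPKM in shCdGAP and 4.72 ± 0.323 in shCON (SD, n = 3), and Mst1, a kringle-domain growth factor, at 0.375 ± 0.421 FPKM in shCdGAP and 3.36 ± 0.391 in shCON. Without shCdGAP replicate 1 the Mst1 mean was 0.133 FPKM in shCdGAP, and the shCON mean was 25.4 times as high in place of 8.97 times. Spint2, a Kunitz inhibitor of membrane serine proteases, was at 137 ± 23.2 FPKM in shCdGAP and 85.6 ± 6.08 in shCON (log2 fold change 0.66, adjusted p = 0.0252, limma), a call lost in the blocked fit (adjusted p = 0.0636), on leaving out shCdGAP replicate 2 (0.0562) and on leaving out each shCON replicate (0.0862 to 0.0885).

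**Figure D5:**
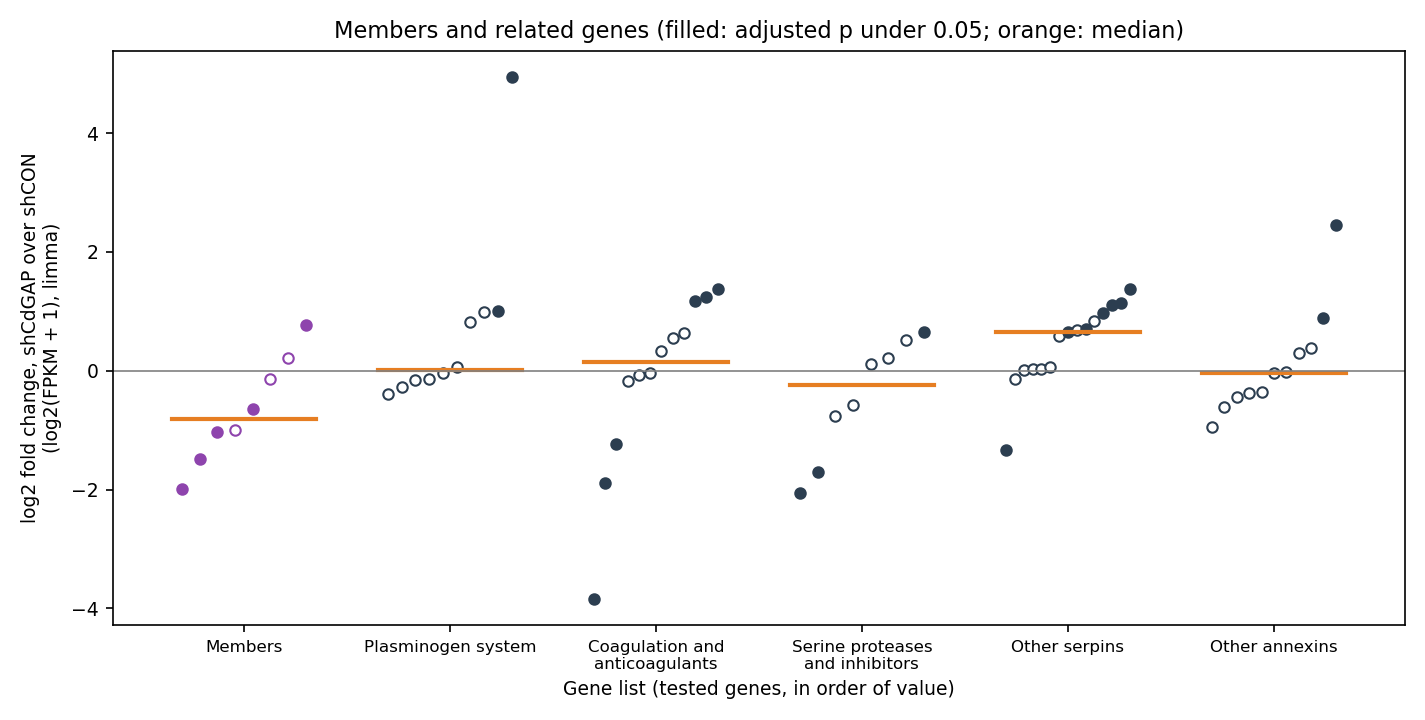
Log2 fold changes of shCdGAP over shCON on the log2(FPKM + 1) scale for the 8 members and for the tested genes of the 5 related lists, in order of value within each list. Filled points are past an adjusted p of 0.05 and the orange line is the median, which is -0.81 for the members and 0.64 for the other serpins.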

How the data were processed

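Total RNA of 3 shCdGAP and 3 shCON libraries was sequenced on an Illumina HiSeq instrument, per the labels. The submitters' processing notes name mm10 as the build, and as tools DESeq2, featureCounts, Trimmomatic and TopHat2 2.0.13, which the authors used in an order not stated. No source used here gives the annotation release or strand handling. The authors deposited FPKM per library and, per the file headers, a DESeq2 comparison: a mean signal, log2 fold change with its standard error, test score, and p-value with its adjusted value. FPKM values had been divided by size factors. Multiplying by the deposited mean signal over mean FPKM and by a fitted factor per library gave whole reads for 100% of values (tolerance 1e-06), used for depth, filter and limma-voom.

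The design assumed raw counts, with limma as its stated fallback. limma 3.58.1 in R 4.3.3 (trend, robust, 2-sided) was therefore fitted to log2(FPKM + 1), which understates changes of low genes, with group as its single term, over genes that had 10 or more depth-scaled reads in 3 or more libraries and 15 or more reads in all. Alternatives were limma-voom, a pseudocount of 0.1 FPKM, other filters and scalings, a plain empirical Bayes step, a replicate block and left-out libraries. The step was tested on simulated data that had no outlying library and no replicate effect, with changes planted only in genes of higher read counts. That test therefore cannot show how the fit behaves with those traits of these libraries or with low genes. Positions are from GENCODE M21, promoters from RefSeq GRCm38.p6. Python 3.11.15, pandas 2.3.3 and matplotlib 3.10.9 were used.

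The 8 genes and the related lists were chosen with earlier results of these data known. From each list the up to 4 genes with the smallest p among those past the threshold are named, and for each member its 2 most correlated genes. S100a10 was added for its role. Some related genes are not reported one by one here. The groups share replicate numbers, and once group means were subtracted, the libraries of number 1, 2 and 3 correlated across groups at 0.43, 0.39 and 0.34. Libraries of number 2 and 3 also correlated with each other across groups, at 0.35 and 0.27, and number 1 with either at -0.44 to -0.35. The main fit has no replicate term, and a fit with the number as a block was run as an alternative. The pairing comes from the data and not the labels. Without strand, reads of overlapping genes cannot be told apart.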

Additional observations from a re-analysis of the deposited data

How the results depend on the processing

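Of the 8 members, Serpine2, Plau and Serpinb2 kept direction and call in every alternative run, except that Plau and Serpinb2 were not tested among genes of at least 5 CPM. That filter left 3 of 6 tested members called, in place of 5 of 8. It left 13 of 37 tested list genes called, in place of 20 of 54, and 1960 of 10330 genes in all. Without both libraries numbered 1, 8 members, 37 list genes and 6506 genes in all were called. Leaving out 1 library at a time gave 3 to 7 members, 9 to 32 list genes and 1237 to 5373 genes in all, against 2838. F3 ranged from -0.11, without shCdGAP replicate 2, to 0.75 on the log2 scale, without shCdGAP replicate 1. The cause was not tested. With the replicate number as a block, 2458 genes in all were called and the pairing changed no call on a member (adjusted p = 0.00764 to 0.0344 for the 5 called, limma). Depth limits Plau, with 8 to 12 reads in shCON, and Serpinb2, with 0 to 25 reads in shCdGAP, most.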
